A study of Homo sapiens with 4 samples.

Results

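Aminoacyl-tRNA synthetases, the enzymes that join each amino acid to its tRNA, were described in single HCEC 1CT cells after knockdown of APC. The set was a fixed list of 35 of the 33538 genes counted in every library: 20 enzymes of the cytosol and 15 of mitochondria, the latter with symbols ending in 2. No measured value enters the rule that chose them, and all 35 symbols were found in the gene list of each library. The symbols are those of the deposited files. The current GENCODE 44 names of most cytosolic genes carry an added 1 (CARS1, YARS1).

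A charged tRNA is what the ribosome uses to turn a codon into an amino acid, so every cell that makes protein needs these enzymes. The cytosolic enzymes serve the translation of nuclear messages, and several of them are held together in the multisynthetase complex. The mitochondrial enzymes are also encoded in the nucleus and serve the few messages of the mitochondrial genome, while GARS and KARS are known to serve both compartments from a single gene. When amino acids run short or unfolded protein builds up, the factor ATF4 is translated and raises genes of amino acid uptake and synthesis, among them many cytosolic synthetases. ATF3 and DDIT3 (CHOP) are transcription factors induced in the same response. WARS, the tryptophanyl enzyme, is in addition a known interferon-inducible gene.

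HCEC 1CT cells are epithelial cells of the human colon that TERT and CDK4 keep dividing, and all of them received a virus with an shRNA and were grown with puromycin. The shRNA was directed against APC (shAPC) or was a scrambled control (shScr), and cells were harvested at day 3 or day 7, which gave 4 groups of 1 library each. Values for all 4 are given in the order shScr then shAPC, day 3 before day 7. The virus is named retroviral in the labels and lentiviral in the methods, and the 10x Genomics 3′ kit is v2 in the labels and V3 in the methods. Knockdown leaves part of the APC transcript, the line is not a tumour, and 1 shRNA sequence was used per arm as far as the labels tell. Since each group is 1 library, no test between groups was run. The intervals below are 95% intervals of counting error only, and the spread between cultures is unknown.

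The promoters are shown first, because several synthetases differed together with ATF3. RefSeq promoters (GRCh38.p14, 250 bases before to 50 bases after the start) were found for 29 of the 35 genes. They were searched on both strands for TGATGNAA, a form of the C/EBP-ATF composite element that ATF4 binds, and for the interferon-stimulated response element, written as GAAA, any 2 bases and GAAA again. TGATGNAA was present in 6 of 10 promoters of the synthetases known to belong to the amino acid response, in 0 of 6 of the other cytosolic enzymes and in 1 of 13 mitochondrial ones, against 3.67% of 27305 promoters. The 7 matches are printed 5′ to 3′ along the gene with 11 bases on each side, and the capitals mark the matched letters, which read TTGCATCA where the element lies on the opposite strand.
AARS: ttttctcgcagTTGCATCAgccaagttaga
CARS: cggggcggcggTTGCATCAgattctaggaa
IARS: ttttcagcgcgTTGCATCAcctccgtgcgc
MARS: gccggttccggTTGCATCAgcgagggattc
NARS: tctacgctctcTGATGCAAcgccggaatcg
TARS: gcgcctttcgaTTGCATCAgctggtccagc
YARS2: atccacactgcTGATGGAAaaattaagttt

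The windows lay at chr16:70289675-70289704 (AARS, minus strand), chr11:3057407-3057436 (CARS, minus), chr9:92293692-92293721 (IARS, minus), chr12:57488053-57488082 (MARS, plus), chr18:57621804-57621833 (NARS, minus), chr5:33440956-33440985 (TARS, plus) and chr12:32756076-32756105 (YARS2, minus). Counted from 0 at the RefSeq start, the first matched letter was at -187 in AARS, -2 in CARS, -13 in IARS, -4 in MARS, 14 in NARS, 2 in TARS and -197 in YARS2. In GENCODE 44 the letters of the 6 cytosolic genes fell in exons of 1 (AARS) to 15 (MARS) annotated transcripts and in no coding sequence, and those of YARS2 lay before every annotated transcript. GARS, SARS, WARS and EPRS had no match in this window. The interferon element was found in the promoter of EARS2 only among the 29, where no promoter held both motifs, against 3.65% of all promoters. A match is a description of the letters in the window, not evidence that a factor binds there. Promoters of YARS, DARS, LARS, VARS, AARS2 and VARS2 were not used here.

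APC itself was lower in both shAPC libraries, at 5.52 against 16.1 CPM (UMIs of a gene scaled to a common library total) at day 3 and 6.61 against 19.1 CPM at day 7. The kept cells numbered 788 to 2600 per library with 28451455 to 39797418 UMIs (distinct molecules) in all. The shScr day 7 cells stood apart in depth, with a median of 1330 UMIs per cell against 21029.5 to 49685.5 in the other 3 libraries. Of 10 colonic epithelial markers, 4 passed 3 UMIs, and EPCAM, CDH1, KRT20, VIL1, CDX2 and LGR5 were at or under 3 UMIs in every library, while 7 of 7 mesenchymal markers were detected, with summed levels of 25.0 to 49.3 CPM and 9469 to 12046 CPM. Of 4 leukocyte markers, CD68 was detected, and PTPRC, CD3E and LYZ were at or under 3 UMIs. The day 3 libraries shared 19 kept barcodes, and other pairs shared 1 to 7.

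All 35 synthetases were detected in all 4 libraries. The 20 cytosolic genes had at least 454 UMIs each in every library and the 15 mitochondrial genes at least 77. Summed over the 20 cytosolic genes, the level was 1288 CPM in shScr and 1647 CPM in shAPC at day 3, and 954 CPM and 1017 CPM at day 7. Summed over the 15 mitochondrial genes, it was 213, 245, 188 and 191 CPM in the same order. Both sums were highest in shAPC day 3, but the median of all genes was higher there too, by 0.33 on the log2 scale against shScr. That shift depends on the scaling and is absent with TMM, where it is -0.05. Ratios below are therefore given as relative log2 ratios, that is, after subtraction of the median log2 ratio of all genes that reached 5 CPM on either side of the comparison. A gene was called higher or lower where the relative ratio was at least 1.5-fold, or 0.585 on the log2 scale.

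**Figure D1:**
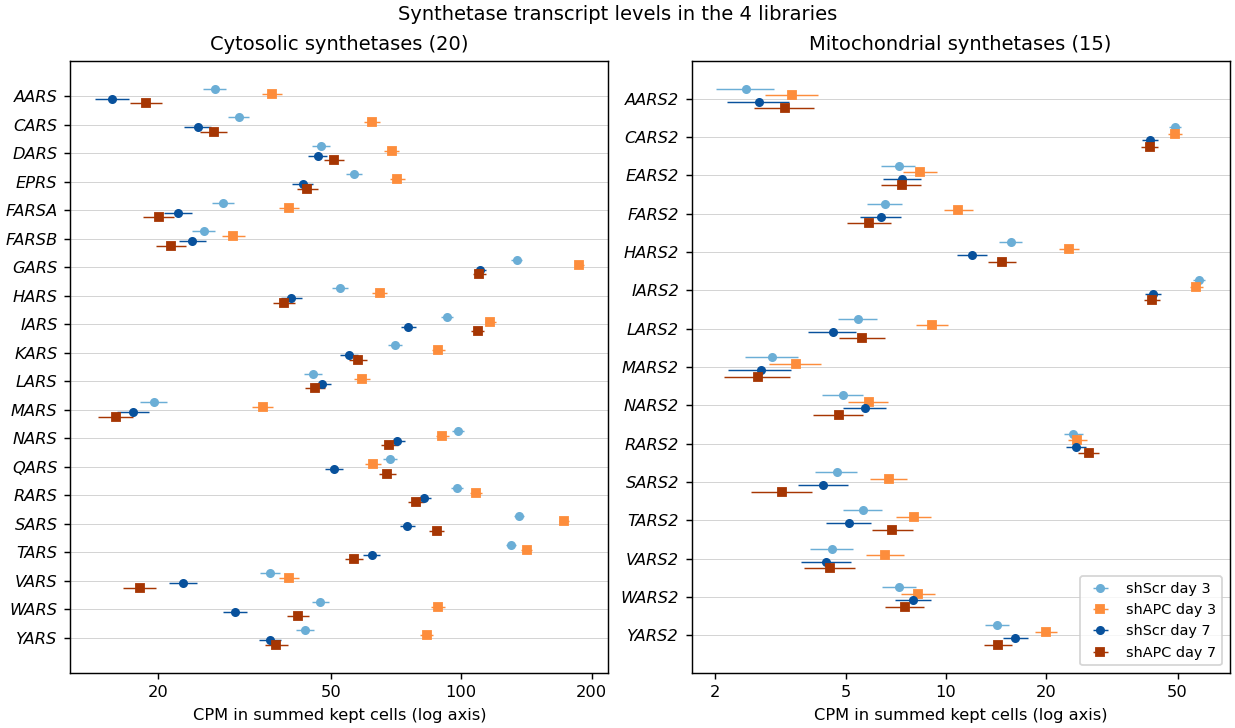
Level of each synthetase in the summed kept cells of the 4 libraries, in CPM on a log axis, for the 20 cytosolic genes (left) and the 15 mitochondrial genes (right). Points are the library values and bars their 95% Poisson intervals. CARS, YARS, WARS and MARS are set apart by shAPC day 3, at 62.1, 83.2, 88.4 and 34.8 CPM, well to the right of the other 3 libraries.

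The share of cells with a UMI of a synthetase followed the depth of the libraries. The median over cytosolic genes was 61.2% and 72.0% of cells in shScr and shAPC at day 3, and 28.2% and 45.4% at day 7. After each cell was thinned to 2000 UMIs, which left out 217, 115, 1402 and 391 shallower cells, it was 9.90%, 14.0%, 8.51% and 8.42%. The thinned median over mitochondrial genes was 1.56%, 1.78%, 1.42% and 1.38%. The libraries hold no cell type that should lack these transcripts, so a background from free RNA could not be measured.

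At day 3, shAPC against shScr asked how the synthetases differ early after knockdown of APC. Cysteinyl- and tyrosyl-tRNA synthetase stood highest, and WARS and MARS followed, whereas NARS and QARS were lowest. Of the 33 genes tested, 2 were called higher and 0 lower, against 7.32% and 6.2% of all genes tested. The 20 cytosolic genes had a median relative log2 ratio of 0.01, with 13 above 0 and 7 below, and the 15 mitochondrial genes one of 0.14, with 8 above and 7 below. The sign of the mitochondrial median is not settled, since it was -0.12 in cells thinned to 2000 UMIs and as a mean over cells, and the summed mitochondrial level was also at -0.12. The family as a whole was thus close to the median gene, and the differences lay in single members. The counting interval lay wholly above 0 for 7 cytosolic genes and wholly below for 5.

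CARS (ENSG00000110619, GRCh38 chromosome 11, 3000922 to 3057613, minus strand) charges cysteine tRNA. It had 30.7 CPM (29.0 to 32.5) in shScr and 62.1 CPM (59.5 to 64.8) in shAPC at day 3, and 24.7 CPM (23.0 to 26.5) and 26.8 CPM (24.9 to 28.8) at day 7. Its day 3 value in shAPC lay above the other 3, which were within a narrow range. Relative to all genes, shAPC was higher by 0.69 (0.59 to 0.79) on the log2 scale at day 3, or 1.61-fold. At day 7 this value was 0.16 (0.01 to 0.31).

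YARS (ENSG00000134684, GRCh38 chromosome 1, 32775237 to 32818031, minus strand) charges tyrosine tRNA. It had 43.5 CPM (41.5 to 45.6) in shScr and 83.2 CPM (80.2 to 86.2) in shAPC at day 3, and 36.2 CPM (34.1 to 38.4) and 37.5 CPM (35.3 to 39.8) at day 7. The pattern was that of CARS, with shAPC day 3 apart from the rest. Its relative log2 ratio was 0.61 (0.52 to 0.69) for day 3. For day 7 it was 0.09 (-0.03 to 0.21), an interval that holds 0. The day 3 call was near the threshold and was lost under 7 of 10 alternatives. YARS was at 0.52 with all deposited barcodes and without those shared between libraries, 0.56 with no minimum, 0.57 as a mean over cells of CPM, 0.28 without the 5% of cells with the most UMIs, 0.27 in cells thinned to 2000 UMIs and 0.07 in cells without ATF3 UMIs. CARS lost its call under 4 of the 10, at 0.32 as a mean over cells, 0.44 without the deepest cells, 0.40 when thinned and 0.15 in cells without ATF3 UMIs.

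WARS (ENSG00000140105, GRCh38 chromosome 14, 100333790 to 100376805, minus strand) charges tryptophan tRNA. It had 47.3 CPM (45.2 to 49.5) in shScr and 88.4 CPM (85.3 to 91.6) in shAPC at day 3, and 30.0 CPM (28.1 to 32.0) and 42.0 CPM (39.7 to 44.5) at day 7. It was higher in shAPC at both days. On the relative log2 scale the difference was 0.57 (0.49 to 0.66) at day 3, just under the threshold, and 0.53 (0.40 to 0.65) at day 7. The day 7 difference was smaller for CARS (0.16) and YARS (0.09). With each cell thinned to 2000 UMIs, 8.57% (6.82 to 10.6) of shScr day 3 cells and 16.9% (14.2 to 20.0) of shAPC day 3 cells held a WARS UMI.

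MARS, which charges the methionine tRNAs used for initiation and elongation, had 19.5 CPM in shScr and 34.8 CPM in shAPC at day 3, and 17.5 and 15.96 CPM at day 7. Its relative log2 ratio at day 3 was 0.51 (0.38 to 0.64), under the threshold. At the other end, QARS, the glutaminyl enzyme, had 68.6 CPM in shScr and 62.5 CPM in shAPC, a relative log2 ratio of -0.46 (-0.54 to -0.38). NARS, the asparaginyl enzyme, had 98.3 and 90.4 CPM and a relative log2 ratio of -0.45 (-0.52 to -0.38). The CPM of both were thus only slightly lower in shAPC, and the larger relative difference reflects the higher median of all genes. The mitochondrial genes ranged from -0.36 for IARS2 to 0.42 for LARS2, and AARS2 and MARS2 were below the 5 CPM minimum.

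**Figure D2:**
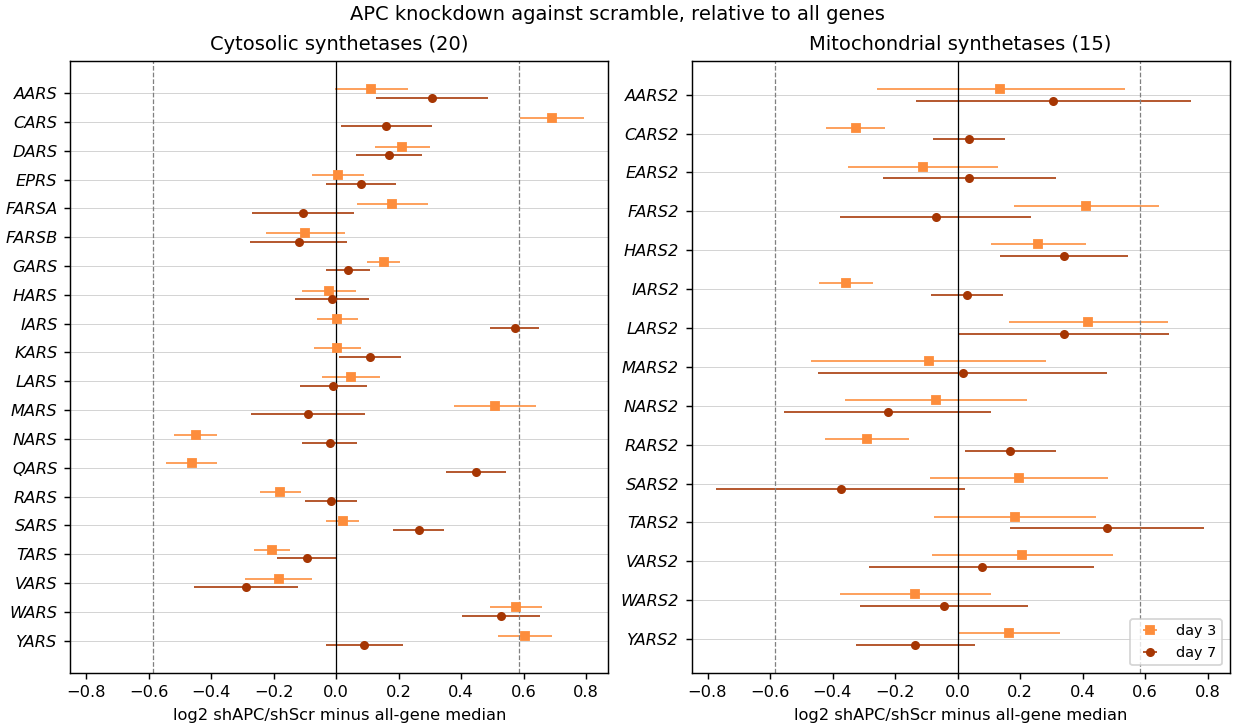
Relative log2 ratio of shAPC to shScr for each synthetase at day 3 (squares) and day 7 (circles), with 95% counting intervals and dashed lines at 1.5-fold. At day 3 CARS (0.69) and YARS (0.61) pass the upper line, at day 7 no gene passes either line, and QARS lies on opposite sides of 0 at -0.46 and 0.45.

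Genes of the amino acid response were higher in the same library. Of 21 listed genes, 18 had a relative log2 ratio above 0 at day 3 and 8 were called higher, against 7.32% of all genes tested. ATF3 was at 5.11, DDIT3 at 3.09, TRIB3, a pseudokinase that restrains ATF4, at 1.70 and ASNS, the asparagine synthetase, at 1.01. ATF4 itself was at -0.28, and its activity is known to be set mainly by translation. Among the 13 synthetases known to respond to amino acid stress, 2 were called higher, against the same 7.32%, with a median of 0.05. Of the 7 other cytosolic enzymes, 0 were called, against 7.32% of all genes called higher and 6.2% lower, with a median of -0.02. Of 7 interferon genes, all 7 were above 0 and 5 of the 6 tested were called higher, against 7.32%.

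The ATF3 transcript came from few cells. At least 1 ATF3 UMI was found in 130 of 788 shAPC day 3 cells, with up to 288 UMIs in a cell, and in 35 of 1116 shScr day 3 cells, with up to 3. In cells without an ATF3 UMI, the day 3 relative log2 ratio of shAPC to shScr was 0.15 for CARS and 0.07 for YARS, while that of WARS was 0.62. There, 1 synthetase was called higher, against 3.49% of all genes tested, and 0 lower, against 4.54%. QARS remained below 0, at -0.31, and NARS at -0.36.

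Within shAPC day 3, the 130 cells with ATF3 UMIs were then set against the 658 without, as a description of cells of 1 library. The cells with ATF3 were deeper, with a median of 62344 against 47221.5 UMIs, and had a lower median mitochondrial share of UMIs, at 2.48% against 3.58%. Of 7 mesenchymal genes, FN1, COL1A1, COL1A2 and SPARC were called lower in them, from -1.18 to -0.76. The leukocyte gene CD68 was at 0.33. Of the 4 epithelial markers above 3 UMIs in this library, only the keratin KRT18 is given here, at 1.65. A shift towards epithelium cannot be read from 1 marker. The part of these genes and of the mitochondrial share in the values of the synthetases was not tested. The amino acid response list stood high, with all 20 genes other than ATF3 above 0 and 12 called higher, among them DDIT3 at 3.66, SLC3A2, a subunit of amino acid transporters, at 2.77 and ASNS at 1.77. Of 7 interferon genes, 7 were above 0 and 3 were called higher. The share of all genes tested that were called higher was 17.6%. CARS, YARS, MARS, GARS and YARS2 were called higher in the cells with ATF3, that is, 5 of 33 synthetases tested, against 17.6% of all genes tested. No synthetase was called lower, against 13.8%. The share called higher was near that of all genes, so the family did not stand out by number. The cytosolic median was 0.05 and the mitochondrial median 0.02.

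The 4 cytosolic genes called stood well above the rest of the family. CARS had 130.9 CPM in cells with ATF3 and 39.7 CPM in cells without, a relative log2 ratio of 1.42 (1.29 to 1.54). YARS had 173.9 and 53.6 CPM, a relative log2 ratio of 1.40 (1.29 to 1.5). MARS had 64.6 and 25.1 CPM, a relative log2 ratio of 1.06 (0.89 to 1.23). GARS, the glycyl enzyme (ENSG00000106105, chromosome 7, 30580533 to 30634033, plus strand), had 334.9 and 138.9 CPM, a relative log2 ratio of 0.97 (0.90 to 1.04), although at the level of the whole library its day 3 ratio was only 0.15. All 4 belong to the 13 synthetases of the amino acid response, of which 9 were above 0 with a median of 0.20, whereas 2 of the 7 other cytosolic enzymes were above 0 with a median of -0.17. CARS and MARS carry a TGATGNAA match, GARS does not, and no promoter of YARS was available to the search.

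Other members of the response group lay at or below the all-gene median in the cells with ATF3. NARS, whose promoter holds the element, was at -0.32 (-0.44 to -0.20), IARS, whose promoter holds it too, at -0.03 (-0.13 to 0.07), and WARS at -0.04 (-0.15 to 0.08). The median log2 ratio of all genes, which is subtracted here, was 0.30. NARS had 89.8 CPM in cells with ATF3 and 90.6 CPM in cells without, so its CPM hardly differed. IARS had 134.1 and 111.1 CPM and WARS 101.3 and 84.2 CPM. SARS, TARS and FARSA were above 0 but under the threshold, at 0.49, 0.39 and 0.51. YARS2, the mitochondrial tyrosyl enzyme, had 30.7 and 16.6 CPM and lay at the threshold, at 0.59 (0.36 to 0.81). At the low end were QARS at -0.54 (-0.70 to -0.40), FARSB, a subunit of the phenylalanyl enzyme, at -0.54 (-0.76 to -0.32), and RARS, the arginyl enzyme, at -0.47 (-0.58 to -0.35). FARSA, the partner subunit of FARSB in the same enzyme, had a ratio of the opposite sign.

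The same cells were next divided by how many ATF3 UMIs they held, none (658 cells), 1 (69), 2 to 19 (40) and at least 20 (21). CARS had 39.7, 61.2, 149.8 and 225.2 CPM over these steps, and YARS 53.6, 80.1, 174.8 and 335.8 CPM. GARS had 138.9, 162.7, 392.6 and 552.8 CPM, and MARS 25.1, 34.8, 68.4 and 111.1 CPM. All 4 were thus higher in CPM at each step. The relative log2 ratio of GARS at 1 UMI was 0.12 (-0.01 to 0.24), an interval that holds 0. TARS was lower than the reference at 1 UMI and higher at the later steps, with 123.0, 116.5, 203.8 and 332.5 CPM and a relative log2 ratio of 0.95 at the last. SARS reached 367.2 CPM from 146.5 CPM, a relative log2 ratio of 0.84.

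The opposite order was seen for QARS, with relative log2 ratios of -0.17, -0.67 and -1.06 over the 3 steps, FARSB, with -0.07, -0.75 and -1.16, and RARS, with -0.24, -0.53 and -0.75. Among mitochondrial genes, IARS2, the isoleucyl enzyme, had relative log2 ratios of 0.02, -0.51 and -1.20. Its cytosolic counterpart IARS had -0.08, 0.06 and -0.11. In CPM, IARS2 had 58.2, 63.7, 53.7 and 35.3 and IARS 111.1, 113.7, 152.5 and 143.5. The relative log2 ratio of VARS2 was -1.04 (-2.20 to -0.08) at the last step. The median depth over the 4 sets of cells was 47221.5, 53907, 80918 and 96804 UMIs and the median mitochondrial share 3.58%, 3.54%, 1.65% and 1.12%, so both moved with the ATF3 count. In cells thinned to 5000 UMIs before ATF3 and the synthetases were counted, 10 synthetases were called higher and 5 lower, against 25.8% and 24.3% of all genes at that setting. Of the 21 kept shAPC day 3 cells with a barcode shared with another library, 10 held ATF3 UMIs, 5 of them at least 20. The steps above include these cells. In the division by presence of ATF3 without shared barcodes, CARS, YARS, MARS and GARS were still called higher, while YARS2 was not, at 0.51.

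**Figure D3:**
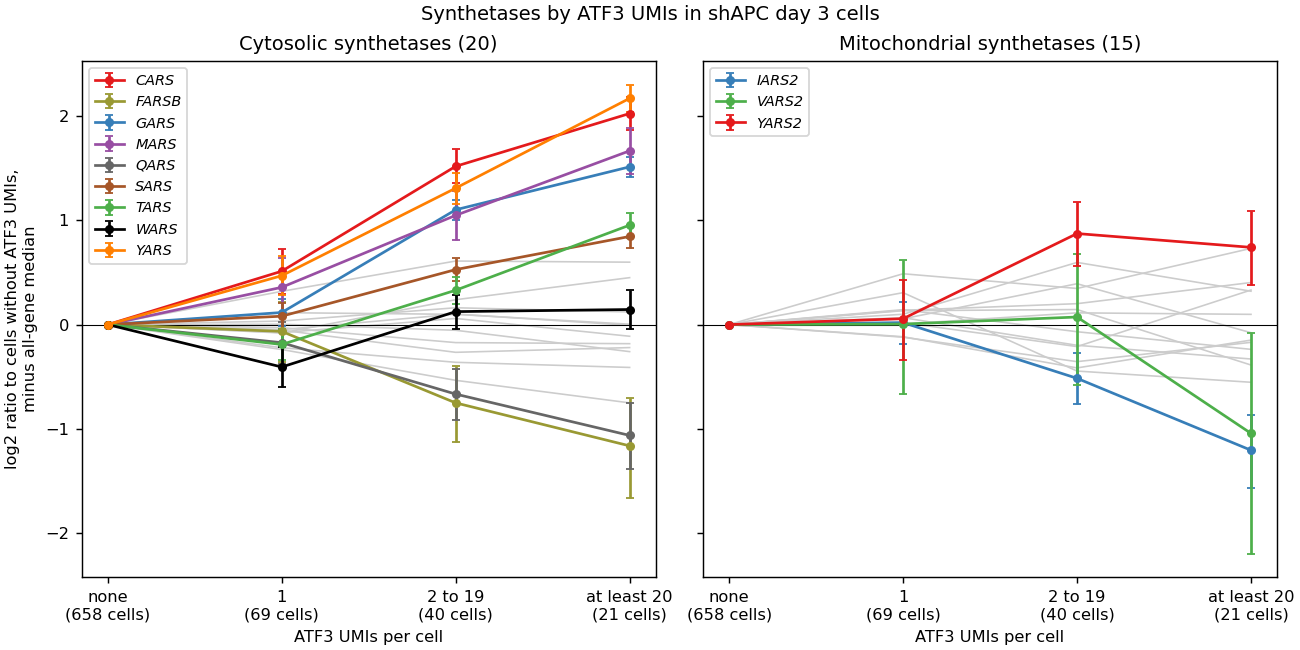
Relative log2 ratio of each synthetase in shAPC day 3 cells with 1, 2 to 19 and at least 20 ATF3 UMIs, against cells with none, with 95% counting intervals for the named genes and the other members in grey. CARS and YARS reach 2.02 and 2.17 at the last step, QARS and FARSB -1.06 and -1.16, and WARS is at 0.14.

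The division by ATF3 was repeated in the other libraries, which had fewer such cells. In shScr day 7, with 72 cells against 2528, CARS was at 1.34 (1.05 to 1.62), YARS at 1.39 (1.16 to 1.62), GARS at 1.21 (1.07 to 1.34) and MARS at 0.87 (0.48 to 1.24). In shAPC day 7, with 44 cells against 1434, they were at 1.09 (0.76 to 1.41), 1.13 (0.85 to 1.39), 0.76 (0.58 to 0.93) and 0.86 (0.39 to 1.31). These 4 genes were called higher in both day 7 libraries, whichever shRNA was used. In shScr day 3, where no cell held more than 3 ATF3 UMIs, 0 synthetases were called, and CARS was at 0.28 (-0.08 to 0.63), YARS at 0.04 (-0.29 to 0.36), GARS at 0.13 (-0.05 to 0.30) and MARS at 0.56 (0.13 to 0.96), just under the threshold.

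In all, 6 synthetases were called higher and 2 lower in shScr day 7, against 17.7% and 12.6% of all genes tested, and 6 higher and 2 lower in shAPC day 7, against 13.6% and 8.97%. In shScr day 3 the background was 5.28% higher and 4.67% lower. QARS was below 0 in both day 7 libraries, at -0.54 (-0.88 to -0.21) in shScr and -0.59 (-0.94 to -0.26) in shAPC, where it was called lower. WARS was called higher in shScr day 7, at 0.68 (0.37 to 0.97). The mitochondrial calls, such as WARS2 at 1.21 and TARS2 at -1.59 in shScr day 7, rested on 38 and 4 UMIs in the cells with ATF3. In shScr day 7 the cells with ATF3 had a median of 26880 UMIs against 1245 in the cells without, so depth moved with the division, and its part was not tested.

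**Figure D4:**
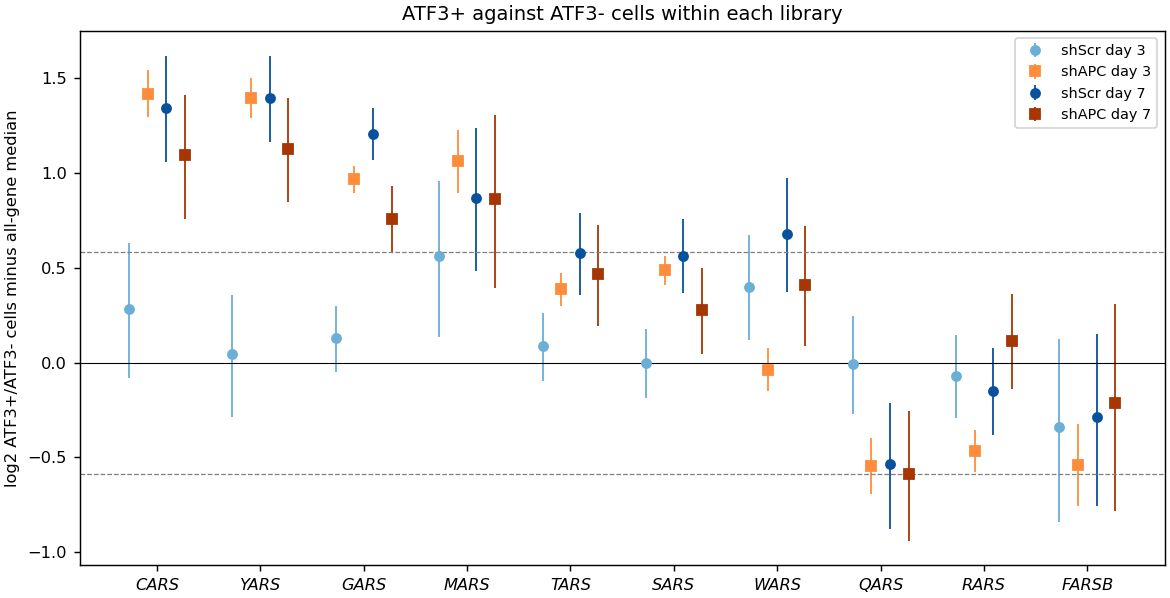
Relative log2 ratio of cells with against cells without ATF3 UMIs within each of the 4 libraries for 10 cytosolic synthetases, with 95% counting intervals and dashed lines at 1.5-fold. CARS, YARS, GARS and MARS lie above the upper line in shAPC day 3 and in both day 7 libraries, from 0.76 to 1.42, and below it in shScr day 3.

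Cells with IFNB1, the interferon beta gene, were compared in the same way, because WARS is interferon-inducible. IFNB1 UMIs were found in 16 shAPC day 3 cells, 10 of which also held ATF3, with a median depth of 86930.5 UMIs against 48938.5 in the other 772 cells. WARS was at 0.32 (0.09 to 0.53) in these cells, under the threshold. CARS at 1.19, YARS at 1.13, MARS at 1.01, GARS at 0.85 and TARS at 0.74 were called higher, against 17.9% of all genes tested. A further 5 were called lower, against 17.9%, of which FARSB at -0.61 and IARS2 at -0.66 rested on 33 and 61 UMIs and EARS2, TARS2 and VARS2 on 7 to 9 UMIs. Since most cells with IFNB1 also held ATF3, the 2 genes cannot be told apart here.

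At day 7, shAPC against shScr gave no calls. Of 31 synthetases tested, 0 were called higher, against 6.03% of all genes tested, and 0 lower, against 6.59%. The cytosolic median was 0.06, with 11 genes above 0 and 9 below, and the mitochondrial median 0.04, with 10 above and 5 below. IARS, the isoleucyl enzyme (ENSG00000196305, chromosome 9, 92210207 to 92293854, minus strand), had 75.5 CPM in shScr and 109.1 CPM in shAPC, a relative log2 ratio of 0.57 (0.49 to 0.65), just under the threshold, which it passed under 6 of 10 alternatives, at 0.59 to 0.76, and missed under the other 4, at 0.51 to 0.57. At day 3 IARS had been at 0.00 (-0.06 to 0.07). WARS at 0.53, TARS2 at 0.48 (0.17 to 0.79) and QARS at 0.45 (0.35 to 0.54) followed, and VARS, the valyl enzyme, was the lowest cytosolic gene at -0.29 (-0.45 to -0.12).

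Over the 35 genes, the day 3 and day 7 ratios, which share no library, had the same sign in 23, or 65.7%, against 61.4% of the 9155 genes tested in both. Their Pearson correlation was 0.18 and their Spearman correlation 0.23, lower than the 0.36 and 0.34 over those 9155 genes. The amino acid response list had a median of 0.24 at day 7, with 14 of 21 genes above 0, against a median of 0.29 at day 3. Only 1 of the 21 was called higher and 1 lower, against 6.03% and 6.59% of all genes. The lower one was ATF3, at -2.15, and the higher one SESN2, a stress-induced inhibitor of mTORC1, at 0.66. All 6 interferon genes with a ratio were below 0. WARS was above 0 at both days, while the interferon list was above 0 at day 3 and below 0 at day 7.

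From day 3 to day 7, most cytosolic synthetases lay below the all-gene median in both shRNA arms, with 5 of 20 called lower in shScr and 9 of 20 in shAPC, whereas the mitochondrial ones lay nearer to it. In shScr, 19 of 20 cytosolic genes had a relative log2 ratio below 0, with a median of -0.39, and the counting interval lay wholly below 0 for 17. Called lower were 5 of 31 genes tested, against 4.51% of all genes, and 0 were called higher, against 3.06%. The 15 mitochondrial genes had a median of -0.10, with 11 below 0 and none called. The summed cytosolic level was lower by a relative log2 ratio of -0.47, and the summed mitochondrial level by -0.22.

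In shAPC, 18 of 20 cytosolic genes were below 0, with a median of -0.41, and 10 of 33 genes tested were called lower, against 8.21% of all genes. None was called higher, against 6.64%. Of the 10, 9 were cytosolic, and the mitochondrial median was -0.04, with 7 above 0 and 8 below. In cells without ATF3 UMIs the cytosolic median was -0.36 and 5 genes were called lower, against 5.56% of all genes, and 0 higher, against 5.5%. CARS, YARS, MARS, SARS and FARSA no longer passed there, at -0.42, -0.37, -0.48, -0.52 and -0.54. Each of these 5 had its highest CPM in the shAPC day 3 library, which the comparison of shRNAs at day 3 uses as well.

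Called lower in both arms were AARS, SARS, TARS, VARS and WARS, all 5 of which belong to the amino acid response group. TARS, the threonyl enzyme (ENSG00000113407, chromosome 5, 33440696 to 33468091, plus strand), had 130.03 CPM (126.5 to 133.6) in shScr and 141.5 CPM (137.6 to 145.5) in shAPC at day 3, and 62.2 CPM (59.5 to 65.0) and 56.7 CPM (53.9 to 59.5) at day 7. The 2 days did not overlap in either arm, and the relative log2 ratio was -1.10 (-1.18 to -1.03) in shScr and -0.99 (-1.07 to -0.91) in shAPC. The share of cells with a TARS UMI after thinning was 23.4% and 17.8% at day 3 and 11.4% and 9.57% at day 7, in the order shScr and shAPC.

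SARS, the seryl enzyme (ENSG00000031698, chromosome 1, 109213918 to 109238182, plus strand), had 135.7 and 172.8 CPM in shScr and shAPC at day 3, and 75.2 and 87.7 CPM at day 7. Its relative log2 ratio was -0.89 (-0.96 to -0.82) in shScr and -0.64 (-0.71 to -0.58) in shAPC. AARS, the alanyl enzyme, had 27.0, 36.6, 15.6 and 18.8 CPM, with ratios of -0.83 (-0.99 to -0.67) and -0.63 (-0.78 to -0.48). Both day 7 values of each gene lay below both day 3 values. VARS had 36.3, 40.1, 22.8 and 18.1 CPM, with ratios of -0.71 (-0.84 to -0.58) and -0.81 (-0.96 to -0.66). WARS was at -0.70 (-0.81 to -0.58) and -0.74 (-0.84 to -0.64).

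CARS at -0.88 (-1.0 to -0.76), YARS at -0.82 (-0.92 to -0.71), MARS at -0.79 (-0.95 to -0.64), FARSA at -0.67 (-0.81 to -0.52) and the mitochondrial SARS2 at -0.74 (-1.10 to -0.38) were called lower in shAPC alone, with -0.35, -0.31, -0.20, -0.39 and -0.18 in shScr. Whether the arms differ was not tested. SARS2 rested on 235 UMIs at day 3 and 91 at day 7. On the relative scale, QARS was above 0 in shAPC, at 0.44 (0.35 to 0.53), and below in shScr, at -0.47 (-0.56 to -0.38). IARS was likewise at 0.24 (0.17 to 0.30) in shAPC and -0.34 (-0.41 to -0.26) in shScr. In shAPC the median log2 ratio of all genes over time was -0.33. There, QARS had 62.5 CPM at day 3 and 67.5 CPM at day 7. IARS had 116.7 and 109.1 CPM, so its CPM was not higher at day 7.

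**Figure D5:**
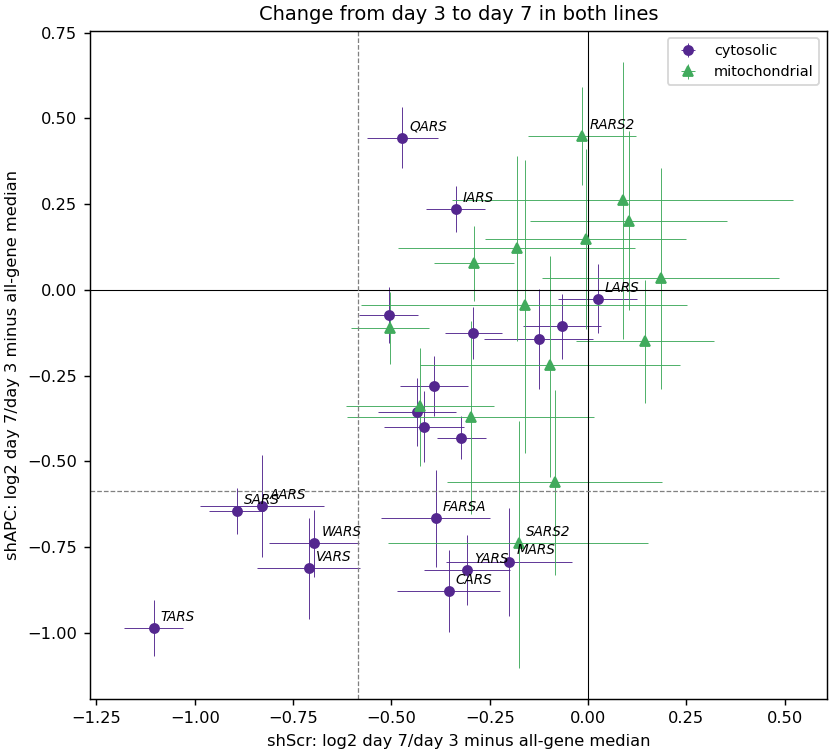
Relative log2 ratio of day 7 to day 3 in shScr (horizontal) and shAPC (vertical) for the 35 synthetases, with 95% counting intervals and dashed lines at 1.5-fold lower. TARS lies at the lower left at -1.10 and -0.99, and QARS and IARS lie above 0 in shAPC only. The mitochondrial genes (triangles) range from -0.50 to 0.18 in shScr and from -0.74 to 0.45 in shAPC, with medians of -0.10 and -0.04.

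For the 15 amino acids with a mitochondrial enzyme in the set, the cytosolic gene was compared with its counterpart (FARSA for FARS2, EPRS for EARS2). From day 3 to day 7 the cytosolic gene had the higher ratio in 3 of 15 pairs in each arm, with a median difference of -0.43 in shScr and -0.57 in shAPC. For shAPC against shScr the pairs were split evenly, with the cytosolic gene higher in 7 of 15 at day 3 and 8 of 15 at day 7. In cells with ATF3 it was higher in 10 of 15, with a median difference of 0.23. The intervals of the mitochondrial genes are wide, with a median width of 0.27 to each side in both time comparisons.

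Other groupings of the cytosolic enzymes were described by their counts. In shAPC from day 3 to day 7, 8 of 13 synthetases of the amino acid response were called lower, with a median of -0.64, and 1 of the 7 others, with a median of -0.14, against 8.21% of all genes. In shScr the counts were 5 of 13 and 0 of 7, against 4.51% of all genes, but the medians were close, at -0.44 and -0.39. Members of the multisynthetase complex were called lower in 0 of 8 in shScr and 1 of 8 in shAPC, against 5 of 12 and 8 of 12 outside the complex. The complex holds IARS and QARS, and its medians were -0.31 and -0.11, against -0.46 and -0.66 outside. By catalytic class, 5 of 9 class I and 4 of 10 class II enzymes were called lower in shAPC, with medians of -0.74 and -0.41, and EPRS, which holds a domain of each class, was at -0.36. All these groups draw on the same 20 genes.

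Over the 35 genes, the ratio of day 7 to day 3 had a Pearson correlation of 0.57 and a Spearman correlation of 0.51 between the 2 arms, which share no library, and the same sign in 77.1%. Over 9023 genes tested in both arms the Pearson correlation was 0.29, the Spearman correlation 0.31, and 61.1% had the same sign. Within the 20 cytosolic genes the Pearson and Spearman correlations were 0.47 and 0.34, and within the 15 mitochondrial genes 0.38 and 0.42. Genes of 1 library share its depth and composition and are not independent replicates. The lists around the synthetases were less uniform over time. The amino acid response list had a median of -0.15 in shScr and -0.49 in shAPC. In shScr, 2 of its 21 genes were called higher (ATF3 at 3.86 and DDIT3 at 1.5) and 2 lower, and in shAPC 9 were called lower. Of the interferon genes, 1 was called higher in shScr and 6 lower in shAPC. Of all genes tested, 3.06% were called higher and 4.51% lower in shScr, and 8.21% lower in shAPC. As sums over cells, AARS, SARS, TARS, VARS and WARS were lower at day 7 in shScr, and ATF3 and DDIT3 were higher. ATF3 UMIs were held by 72 of the 2600 shScr day 7 cells. In those cells, against the rest of that library, the synthetases were at 0.08, 0.56, 0.58, 0.37 and 0.68 in the same order. How they relate to ATF3 was not tested.

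Partners of tRNA charging were counted as a further list of 15 genes, which holds scaffold proteins of the complex, mitochondrial amidotransferase subunits and the selenocysteine enzymes. For shAPC against shScr, 1 of 13 tested was called higher at day 3, against 7.32% of all genes. At day 7, 1 of 13 was called lower, against 6.59%. From day 3 to day 7, 1 of 12 was called lower in shScr and 1 of 13 in shAPC, against 4.51% and 8.21%. In shAPC day 3 cells with ATF3, 4 of 15 were called higher and 1 lower, against 17.6% and 13.8% of all genes. Of the 15, 9 lay above 0 and 6 below. The 4 called higher were PSTK at 1.28 and SEPSECS at 1.22, which turn seryl-tRNA into selenocysteinyl-tRNA, and the scaffold proteins AIMP1 at 0.60 and AIMP2 at 0.59.

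The position of some genes limits their values. HARS overlaps DND1 on the same strand, EARS2 overlaps GGA2 and HARS2 overlaps ZMAT2, so reads could be split between the partners, and MARS2 and SARS2 each overlap a gene listed by identifier only. The calls of SARS2 over time in shAPC, of EARS2 in the cells with IFNB1 and of EARS2 and HARS2 in the day 7 divisions by ATF3 are uncertain for this reason too.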

How the data were processed

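Single-cell RNA of 4 libraries was analysed, 1 for each of shScr and shAPC at day 3 and day 7. The authors aligned the reads to hg38 (GRCh38) and deposited raw UMI counts per gene and barcode, written per the file headers by Cell Ranger 3.0.2 (shScr) and 3.0.0 (shAPC), so the version coincides with the shRNA. The annotation release was not given in the sources used here. The study's ComBat correction and imputation were not applied, since with 1 library per group a correction could remove the effect of the shRNA.

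Barcodes with at least 200 genes, 500 UMIs and under 5% mitochondrial UMIs were kept. Doublets were not removed and their share is unknown. UMIs were summed per library (28451455 to 39797418) or per set of cells and scaled to CPM. CPM have exact Poisson intervals, ratios exact conditional binomial (Clopper-Pearson) intervals and shares Clopper-Pearson intervals, at 95% and for counting error only. Relative ratios had the median log2 ratio of genes with at least 5 CPM in 1 of both sides subtracted, counts under 3 being set to 3. A gene was called at 1.5-fold, with no p-value. ATF3 or IFNB1 was left out of the all-gene counts where it defined the cells. The ratio script was tested on simulated data.

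Members and lists (amino acid response, complex, classes, partners, interferon, markers) were chosen with earlier results of these data known, and 1 gene of the partners list is not reported here. Members called in a comparison of shRNAs or in the ATF3 comparison are named with full values, and the others by range, or individually where a count or an extreme turned on them, which was decided after their values were seen. Alternatives changed the cells kept, the depth, the averaging, the pseudocount, the minimum CPM and the scaling, with TMM from edgeR 4.0.16 and size factors from DESeq2 1.42.0. Python 3.11.15, numpy 2.4.6, scipy 1.17.1, pandas 2.3.3 and R 4.3.3 were used. Gene positions are from GENCODE 44.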

Additional observations from a re-analysis of the deposited data

Results flagged for a closer look

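QARS, the glutaminyl enzyme and a member of the multisynthetase complex, lay on opposite sides of the all-gene median at the 2 days. Its relative log2 ratio of shAPC to shScr was -0.46 at day 3 and 0.45 at day 7, with counting intervals that exclude 0 at both. The direction held under every alternative tried for each day, from -0.51 to -0.31 at day 3 and from 0.28 to 0.65 at day 7. Each day rests on 1 library per shRNA, and the difference between the days was not tested.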

How the results depend on the processing

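No paired analysis was possible because each group holds 1 library. No called value changed its sign under any alternative run. Without cells whose barcode was kept in another library, each comparison of libraries gave the same count of calls, although at day 3 WARS passed (0.59) and YARS did not (0.52).

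Cells thinned to 2000 UMIs gave day 3 medians of 0.14 (cytosolic) and -0.12 (mitochondrial) for shAPC against shScr, and -0.52 for the cytosolic genes of shScr over time. Calls there were 5 higher and 2 lower (main 2 and 0) at day 3, 6 and 2 (0 and 0) at day 7, 2 and 12 (0 and 5) over time in shScr, and 4 higher (0) over time in shAPC. More of all genes were called there too, since 10.9% to 16.2% were called higher and 12% to 14.7% lower in these comparisons. The mean over cells of CPM gave a mitochondrial median of -0.12 at day 3 and cytosolic medians of -0.22 at day 7 and -0.21 over time in shScr, with 1 lower at day 3, 2 higher and 2 lower at day 7, 2 and 2 over time in shScr and 1 higher in shAPC, against 10.7% to 14.6% of all genes higher and 7.28% to 12.6% lower. At day 3, 1 gene was called higher with all deposited barcodes, without the 5% of cells with the most UMIs, without cells with ATF3 and with no minimum. At day 7, where none was called, 2 were called higher with all deposited barcodes, 1 without the deepest 5%, 1 without cells with ATF3 and 1 with a minimum of 20 CPM. Without cells with ATF3, 5 of the 10 calls in shAPC over time were lost.

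In the ATF3 comparison (5 higher, 0 lower) the cytosolic median was 0.25 when thinned to 5000 UMIs, and the calls were 10 and 5 (all genes 25.8% and 24.3%). With at least 2 ATF3 UMIs they were 8 and 4 (23.3% and 24.3%), and with the mean over cells 9 and 1 (17.3% and 10.8%). A split by DDIT3 in place of ATF3 set 396 cells against 392. It called 9.39% of all genes higher and 4.55% lower, fewer than the split by ATF3. NARS was at -0.02 there, against -0.32 with ATF3, and IARS at -0.001. The count of synthetases called with DDIT3 is not given here. At least 20 ATF3 UMIs, chosen after seeing the data like 1 to 19 UMIs, the split of the other libraries and the shared barcodes, gave 9 and 5 (27.8% and 29.8%).

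Without subtraction of the all-gene median, scaling decided the day 3 medians. The cytosolic median of 0.34 became 0.23 with totals without mitochondrial and ribosomal protein genes, -0.039 with TMM and -0.022 with DESeq2 size factors, and the mitochondrial 0.47 became 0.085 and 0.10 with the last 2. Over time in shAPC the cytosolic -0.75 became -0.57, -0.44 and -0.44, and the mitochondrial -0.38 became -0.075 and -0.073. The causes were not tested. Depth limits the mitochondrial genes most, some of which had under 100 UMIs.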
